A study of Mus musculus with 4 samples.

Results

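Ribosomal proteins build the large (Rpl genes) and small (Rps genes) subunits of the ribosome, and their mRNAs are among the most abundant in a growing cell. Many ribosomal protein genes also carry small nucleolar RNAs (snoRNAs) in their introns: C/D box snoRNAs guide 2′-O-methylation and H/ACA box snoRNAs guide pseudouridylation of ribosomal RNA, and both kinds are trimmed out of the spliced intron of the host gene. AGO2 is the Argonaute protein that holds a microRNA (miRNA) and pairs it with target RNA, and in CLASH the miRNA and the RNA beside it on AGO2 are ligated, so that 1 sequenced read holds both.

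The chimeric reads analysed here came from AGO2-CLASH of primary mouse kidney mesangial cells (MMC) of C57BL/6J background, the contractile cells that support the glomerular capillaries. WT MMC (libraries WT A and WT B) were set beside MMC of mice homozygous for a germline CRISPR-Cas9 nickase deletion at miR-379 (miR-379KO A and miR-379KO B), so each genotype had 2 libraries. All cells were primary cultures from glomeruli, grown in serum-containing medium without treatment. Nothing in the labels says that the letters A and B pair the libraries, or that the 2 libraries of a genotype came from separate animals, so the spread between them may be technical. Pairs of values for a genotype are given in the order library A, library B.

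Members were all target genes whose symbol was Rpl or Rps followed by a number, or Rplp0, Rplp1, Rplp2 or Rpsa. Names of pseudogenes (34 names with -ps) and of Rps6k kinases (2 names) were left out. The rule found 47 of the 8440 target genes, 31 of the large and 16 of the small subunit by name; Rpl7l1 and the retrocopy Rpl37rt came in by name, and Rplp1 was not listed in any library. They took 242 of 36318 chimeric reads (0.666%), or 181 distinct read and library combinations. One read was listed with both Rpl37 and Rpl37rt, so 243 reads were counted over genes in 182 listings. Only 45 of the 181 were listed with a single gene, 24 were also listed with a ribosomal protein pseudogene, and 61 of the 182 target segments matched the genome at several places, so the gene assignment of many reads is shared.

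The WT libraries held 16324 and 7192 chimeric reads (14197 and 4869 distinct) and the miR-379KO libraries 6326 and 6476 (4323 and 5678 distinct). miR-379-5p was listed with 2 reads in WT A and 1 in WT B, miR-379-3p with 1 in WT A, and neither in the miR-379KO libraries. Of 12 mesangial or fibroblast marker genes 10 were listed, with 865 reads, whereas the 4 endothelial, 4 tubule and 3 leukocyte markers had no read and 3 of 5 podocyte markers had 5 reads together. Of 28227 distinct read sequences 623 (2.21%) were found in more than 1 library.

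The label of ribosomal protein mRNAs held for a minority of the reads. When each target segment was placed on the genome (GRCm38) through its listed transcript, 140 of 243 reads (57.6%) lay in an annotated snoRNA within an intron of the ribosomal protein gene, on its strand. Another 67 reads (27.6%) lay in coding sequence, 16 (6.58%) in a 3′-UTR, 1 in a 5′-UTR and 19 (7.82%) outside coding transcripts, in retained-intron or other noncoding transcripts of the gene. Each listing counted once, snoRNAs held 52.2%, and over the 44 genes described singly here they held 80 of 182 reads (43.96%). The snoRNA reads numbered 73 and 18 in WT and 18 and 31 in miR-379KO. The members are therefore called ribosomal protein genes below.

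The sequences that carry the pairs described are the mature miRNAs, from RefSeq (GRCm38.p6), with the seed (bases 2 to 8) in capitals. miR-199a-3p and miR-199b-3p are the same sequence, so every read listed with one was listed with the other, and let-7b-5p and let-7c-5p share a seed.
miR-1195: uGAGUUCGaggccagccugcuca
miR-199a-3p and miR-199b-3p: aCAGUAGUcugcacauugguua
miR-214-3p: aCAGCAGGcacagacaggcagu
miR-690: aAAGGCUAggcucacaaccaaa
miR-7213-5p: aCUGGGUCucuugagguagc
let-7c-5p: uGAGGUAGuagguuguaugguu

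Over these 44 genes the reads were spread unevenly. Rps12 held 18 reads, Rpl7a 15, Rpl10 13, and Rpl13, Rpl21 and Rpl4 10 each. No other of the 44 had 10 reads; 16 had 1 read, 21 were found in 1 library only, and Rpl4 alone was found in all 4. Every read of Rps12, Rpl10 and Rpl21 lay in a snoRNA, as did 14 of 15 reads of Rpl7a and 9 of 10 of Rpl13. Rpl4 had 4 snoRNA reads, 5 in coding sequence and 1 in its 3′-UTR.

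**Figure D1:**
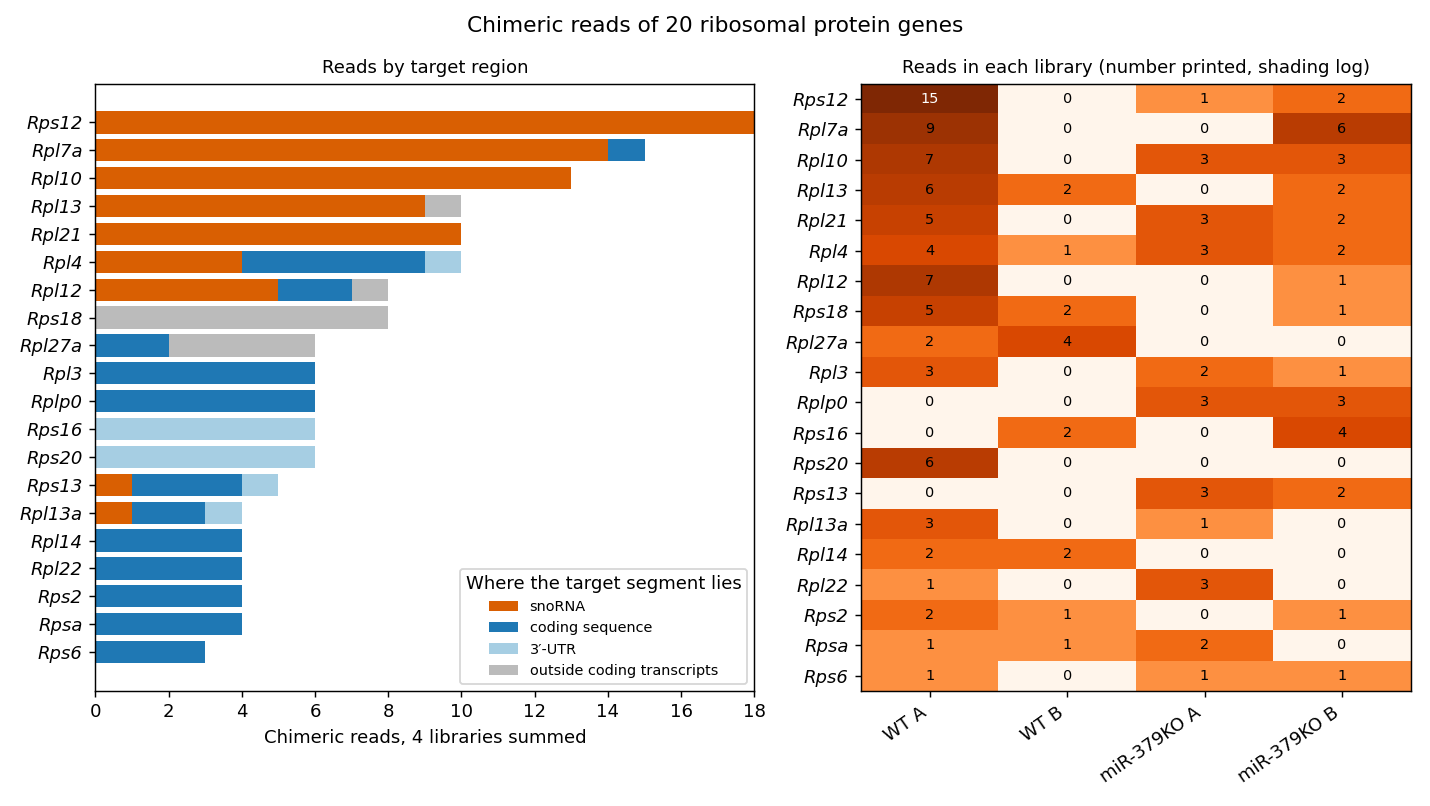
Chimeric reads of 20 ribosomal protein genes, the highest of the 44 described singly. Bars on the left give reads summed over the 4 libraries, coloured by where the target segment lies; the panel on the right prints the reads in each library (shading on a log scale). Segments in snoRNAs make up the whole bar of Rps12 (18 reads), Rpl10 (13) and Rpl21 (10).

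In the 44 genes the snoRNA reads came from 15 loci in 13 host genes, of which 10 were C/D box snoRNAs with 58 reads and 5 were H/ACA box snoRNAs with 22 reads. Coordinates are GRCm38. Rps12, a small subunit protein, carries both Snord100 (chr10:23785754-23785821, minus strand, 12 reads) and a SNORD101 gene (chr10:23786470-23786543, minus strand, 6 reads), and 15 of these 18 reads came from WT A. A SNORD36 gene of Rpl7a (chr2:26912530-26912600, plus strand) had 7 reads in WT A, 6 in miR-379KO B and none in the other libraries, and a second SNORD36 copy in the gene had 1 read.

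Snora70 in Rpl10 (chrX:74272484-74272620, plus strand) had 13 reads, 7 and 0 in WT and 3 and 3 in miR-379KO. SNORD102 in Rpl21 (chr5:146834834-146834904, plus strand) had 10 reads, 5 and 0 in WT and 3 and 2 in miR-379KO. Snord68 in Rpl13 (chr8:123103038-123103123, plus strand) had 9 reads, Snora65 in Rpl12 (chr2:32963291-32963420, plus strand) 5 and Snord16a in Rpl4 (chr9:64175432-64175522, plus strand) 4. The remaining loci, in Rpl32, Rpl13a, Rpl30, Rpl6, Rps13 and Rps3, had 1 or 2 reads each. With 3 reads as the floor, a count of 0 in WT B allows up to 4.17 reads per 10000 and in WT A up to 1.84, so a 0 in one of the 3 smaller libraries is a loose bound.

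The segments of several C/D box snoRNAs were close to whole snoRNAs. Of 70 distinct snoRNA listings, 30 ended within 10 nt of both annotated ends, among them all 11 for the main SNORD36 locus, 7 of 10 for Snord100, 5 of 7 for SNORD102 and all 4 for Snord16a. None of the 8 in Snord68 or the 5 in SNORD101 did so. Among H/ACA box snoRNAs, none of the 12 segments in Snora70 reached within 10 nt of both ends, their median start lying 102 nt from the 5′ end; the single Rpl6 segment did. The letters of the C and D boxes, TGATG and CTGA, were searched on the strand of the read, allowing overlap with other motifs. Both were found in 30 of 32 C/D segments of 50 to 90 nt (93.75%) and in 639 of 12129 target segments of 50 to 90 nt in all other reads (5.27%). At any length, they were found in 36 of 49 C/D segments (73.5%) and in 1150 of 28886 target segments of all other reads (3.98%). Among ribosomal protein segments outside snoRNAs of any length, 3 of 86 (3.49%) held both. The letters describe the segments and show no binding.

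**Figure D2:**
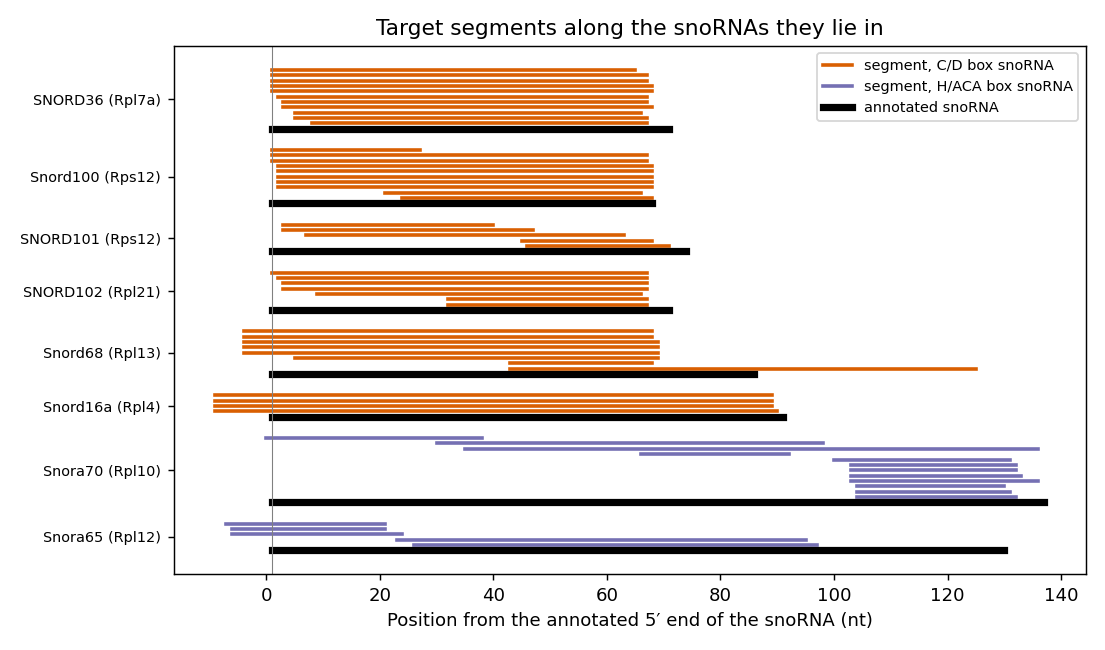
Target segments along 8 snoRNAs with 4 or more reads at their main locus, in nt from the annotated 5′ end of the snoRNA. Each thin line is 1 distinct read (orange, C/D box; purple, H/ACA box) and the black bar is the annotated snoRNA; the C/D segments of SNORD36 span nearly the whole bar, and most Snora70 segments lie near its 3′ end.

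Among the 44 genes, the pair with the most reads was that of Rpl7a, a large subunit protein, with miR-199a-3p and miR-199b-3p, miRNAs abundant in fibroblast-like cells. Of the 18 reads of this sequence in the whole series, 12 (66.7%) were listed with Rpl7a, 6 and 0 in WT and 0 and 6 in miR-379KO. All 10 distinct reads opened with 21 or 22 nt of the miRNA in sense, and 60 to 68 nt of SNORD36 followed. None of these miRNA segments was contained in a longer genome match. The deposited alignment scored 145 with a minimum free energy (MFE) of -16.9 in the deposited unit. miR-214-3p, encoded near miR-199a on chromosome 1, had 7 reads with SNORD102 of Rpl21 (2 and 0 in WT, 3 and 2 in miR-379KO), in 4 distinct reads that opened with 20 to 22 nt of the miRNA. These were 5.07% of its 138 reads. In the joined reads the last miRNA bases, in capitals, run into the start of the snoRNA with its C box letters.
miR-199a-3p with SNORD36: TCTGCACATTGGTTAattgcaatgatgtca
miR-214-3p with SNORD102: GCACAGACAGGCAGTacttaatgatgattg

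**Figure D3:**
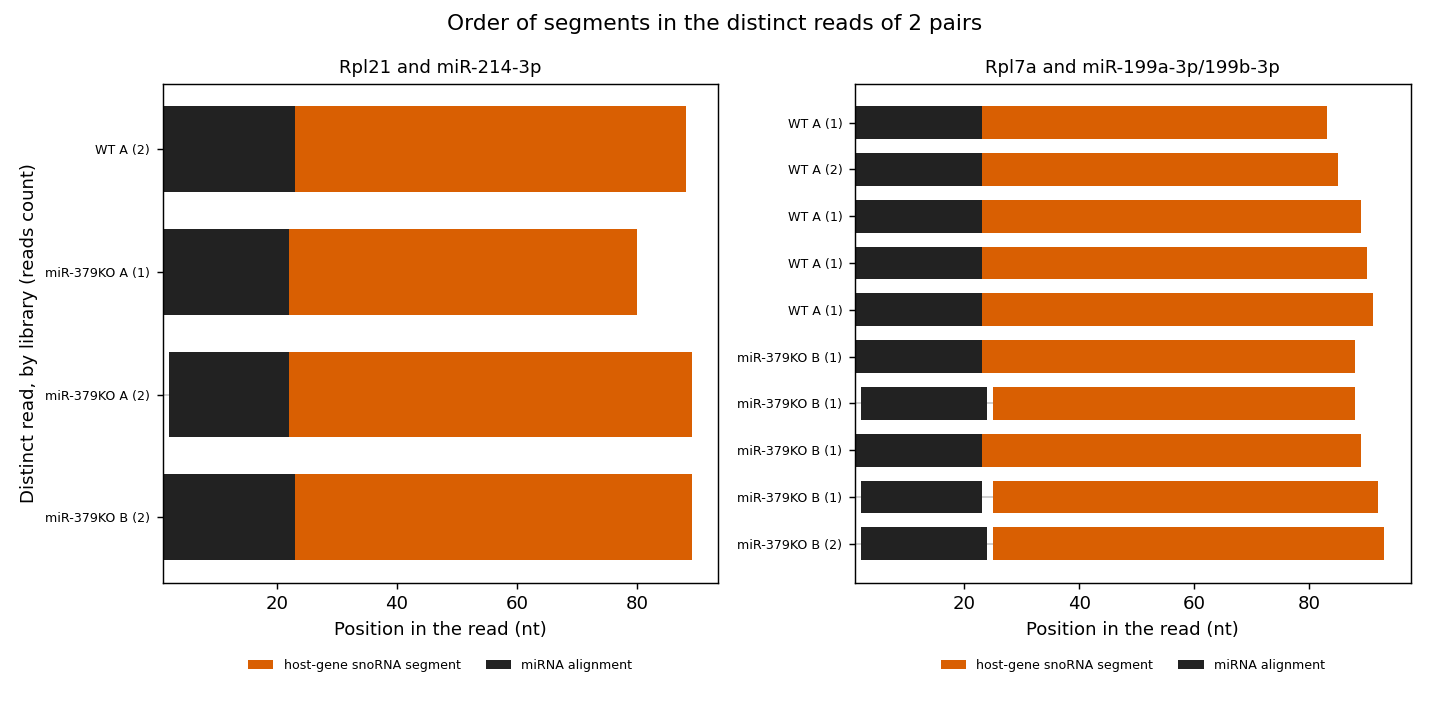
Order of the segments in each distinct read of the Rpl21 and miR-214-3p pair (4 reads) and of the Rpl7a and miR-199a-3p pair (10 reads); the horizontal axis is the position in the read in nt, and the reads count is in parentheses. In every read the miRNA alignment (black) of 20 to 22 nt begins at base 1 or 2, and the snoRNA segment of the host gene (orange, 58 to 68 nt) follows.

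Over all members, 24 distinct reads (30 reads) held at least 20 nt of a miRNA in sense together with a sense target segment. They numbered 9 and 5 in WT and 2 and 8 in miR-379KO. Of these, 16 lay in snoRNAs, 5 in coding sequence and 3 in other segments that were over 50% soft-masked repeat. The miRNA came first in 21 of 24, the gap between the segments was at most 3 nt in 24 of 24, and none had a genome-contained miRNA segment, that is, one that matched the genome exactly together with 10 nt of the read on each side. The seed match, the reverse complement of miRNA bases 2 to 7, was in the target segment of 3 of them: miR-145a-5p with Rpl37, miR-143-3p with Rpl23, and miR-365-3p with Snord15b of Rps3.

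The 8 of these reads with the lowest MFE included all 4 reads of miR-214-3p with SNORD102 (-24.4 each). The others were miR-221-3p with a repeat segment in Rpl12 (-23.88, miR-379KO B), let-7c-5p with Rpsa coding sequence (-21.8, WT B), miR-690 with a repeat segment of Rpl27a (-21.12, WT B) and miR-199a-5p with SNORD101 of Rps12 (-20.88, WT A). Rpsa, the small subunit protein also known as the laminin receptor, was the single coding sequence target among them. The read joins 142 nt of Rpsa to 21 nt of let-7c-5p with no gap. The deposited sites of the miR-221-3p and miR-199a-5p reads were not found in their target segments.

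The 5 coding sequence reads with at least 20 nt of a miRNA made 4 pairs, and their deposited target sites are shown with the longest run complementary to the seed in capitals. A run is marked by its letters alone, so a short run need not face the seed in the alignment.
Rpl37 with miR-145a-5p: cgcaagaggaagtatAACTGGAg
Rpl23 with miR-143-3p: aaaaacttgtataTCATCTCt
Rpsa with let-7c-5p: ccgcatgcgaggtaCTAtctcc
Rpl3 with miR-690: ggtggttgtggGCattgtggga

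The sites of Rpl37 and Rpl23, both large subunit proteins, paired all 7 seed bases, with deposited MFE of -14.6 and -10.77. The longest run of exact complement to the seed was 3 letters in the Rpsa site and 2 in the Rpl3 site, with MFE of -21.8 and -19.26. G:U pairs were not counted. In the Rpsa site, a t that can pair with G separates this run from more letters complementary to the seed. Each of the first 3 pairs had 1 read, and Rpl3 with miR-690 had 2, both in WT A, so none was found in both libraries of a genotype. Rpl3 helps shape the peptidyl transferase centre of the large subunit.

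Coding sequence segments came from 30 genes in 56 listings, 25 of which crossed an exon junction. All were sense to the gene. The alignment to the miRNA was at least 16 nt in 10 of 57 listings, 23 (40.4%) had a genome-contained miRNA segment, and 20 (35.1%) held the seed match. In the 51 listings with a position in the listed transcript, the starts ranged from base 56 to base 1749, with a median of 526.

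Rplp0, the scaffold of the ribosomal stalk, had 0 and 0 reads in WT and 3 and 3 in miR-379KO. Of these 5 were listed with miR-7050-5p by a 12 nt sense alignment, and their segments began on chromosome 5 between 115561386 and 115561396, 37.7% to 50% soft-masked. Rplp2, its stalk partner, had 2 reads, both in WT A with miR-1903. Rps13, a small subunit protein, was likewise seen only in miR-379KO, with 3 and 2 reads. Rpl27a and Rpl14 had reads only in WT, 2 and 4 for Rpl27a and 2 and 2 for Rpl14. Rpl22 had 1 and 0 reads in WT and 3 and 0 in miR-379KO, Rps2 had 2 in WT A and 1 each in WT B and miR-379KO B, and Rpsa had 1 in each WT library and 2 in miR-379KO A. Of the 13 members with 4 to 9 reads, 4 were found in both libraries of one genotype and in neither of the other, which also held for 231 of 1429 target genes with as many reads (16.2%), a range set after the values were seen. All of these had under 10 reads and fell below the minimum of the test between genotypes; tested with no minimum count, 0 of the 47 members were called, with a smallest unadjusted edgeR p of 0.060, as were 0 of all 8440 target genes (49 had an unadjusted p under 0.05).

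Another set lay in repeats. Outside snoRNAs, 32 listings with 39 reads were over 50% soft-masked in the genome. miR-1195 had 17 reads with 5 genes (Rps16, Rps18, Rps20, Rps28 and Rpl37rt), all in fully masked segments, and in 12 of 13 listings its segment was contained in a longer genome match. Rps20 had 6 reads, all in WT A, and the Rps16 reads were 2 in WT B and 4 in miR-379KO B; both sets lay in the 3′-UTR. Rps20 with miR-1195 had the lowest deposited MFE of all members, -42.75, in reads whose target segment did not hold the deposited site. The other Rps20 reads had -28.85. Rps18 had 8 reads with miR-1195, miR-709 and let-7b-5p, 5 and 2 in WT and 0 and 1 in miR-379KO. Of the 6 listings of miR-709 with ribosomal protein genes 4 were fully masked. Rpl27a with miR-690 (4 reads) also lay in a masked intron segment.

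Among the 104 miRNAs listed with ribosomal protein genes, 82 had 1 distinct read. Besides those above, miR-7213-5p had 7 reads, all with Snora70 of Rpl10 by a 14 nt alignment, in a segment contained in a longer genome match in 5 of 7, and miR-802-5p had 4, all with Snord16a of Rpl4 by 12 nt antisense, contained in this way in 4 of 4. miR-10a-5p and miR-10b-5p, with 6 and 11 reads in the series, and both arms of miR-379 had none with these genes. Over 194 listings of read, miRNA and gene, the miRNA alignment ran from 12 to 23 nt with a median of 13, and 134 (69.1%) were under 16 nt. The miRNA was antisense in 52 (26.8%). The deposited score was 56 to 73 in 80 listings and 140 to 181 in the other 114, with none between. Score and MFE were deposited with a target site, which was found in the target segment of the read in 151 of the 194 listings.

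Each property was then set against reads not listed with any ribosomal protein gene, library by library, to ask where these genes differ from other targets. The exact sign-flip permutation test over 4 libraries cannot give a two-sided p below 0.125, so none of the 6 comparisons could pass 0.05. Target segments were in sense in 96.8% and 95.8% of WT and 100% and 100% of miR-379KO ribosomal protein listings, against 70.1% and 73.4% (WT) and 71.8% and 71.8% (miR-379KO) of others. The mean difference was 26.4 percentage points ± 2.71 (SD, n = 4; exact permutation p = 0.125, Benjamini-Hochberg adjusted 0.15; higher in 4 of 4). Without ribosomal RNA and mitochondrially encoded genes among the others it was 15.6 points.

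The median target alignment was 60 and 81.5 nt in WT and 69 and 67 nt in miR-379KO, against 50 and 55 nt and 55 and 58 nt in other reads, longer by 14.9 ± 8.05 nt in 4 of 4 libraries (exact permutation p = 0.125, adjusted 0.15) and by 9.13 nt over the 44 genes described singly. The median MFE was less negative in 4 of 4, by 1.93 ± 0.643 in the deposited unit (exact permutation p = 0.125, adjusted 0.15). The seed match share was 30.1% against 22.0% on average, higher by 8.05 ± 4.73 points in 4 of 4 (exact permutation p = 0.125, adjusted 0.15), by 2.18 points when each read was weighted by its reads count, by 14.1 points over the 44 genes and by 21.6 points with reads listed with a single gene. The genome-contained share was 49.8% against 36.9%, higher by 12.96 ± 9.98 points in 4 of 4 (exact permutation p = 0.125, adjusted 0.15), but by 3.76 points over the 44 genes, by 8.03 points without miR-379KO A and by 21.05 points with reads weighted by their count. The share of miRNA alignments of at least 16 nt was 29.99% against 37.3%, lower in 3 of 4 and higher in miR-379KO B (exact permutation p = 0.25, adjusted 0.25). That difference of -7.28 points was -1.89 over the 44 genes, -2.60 without miR-379KO A and -10.97 without miR-379KO B.

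**Figure D4:**
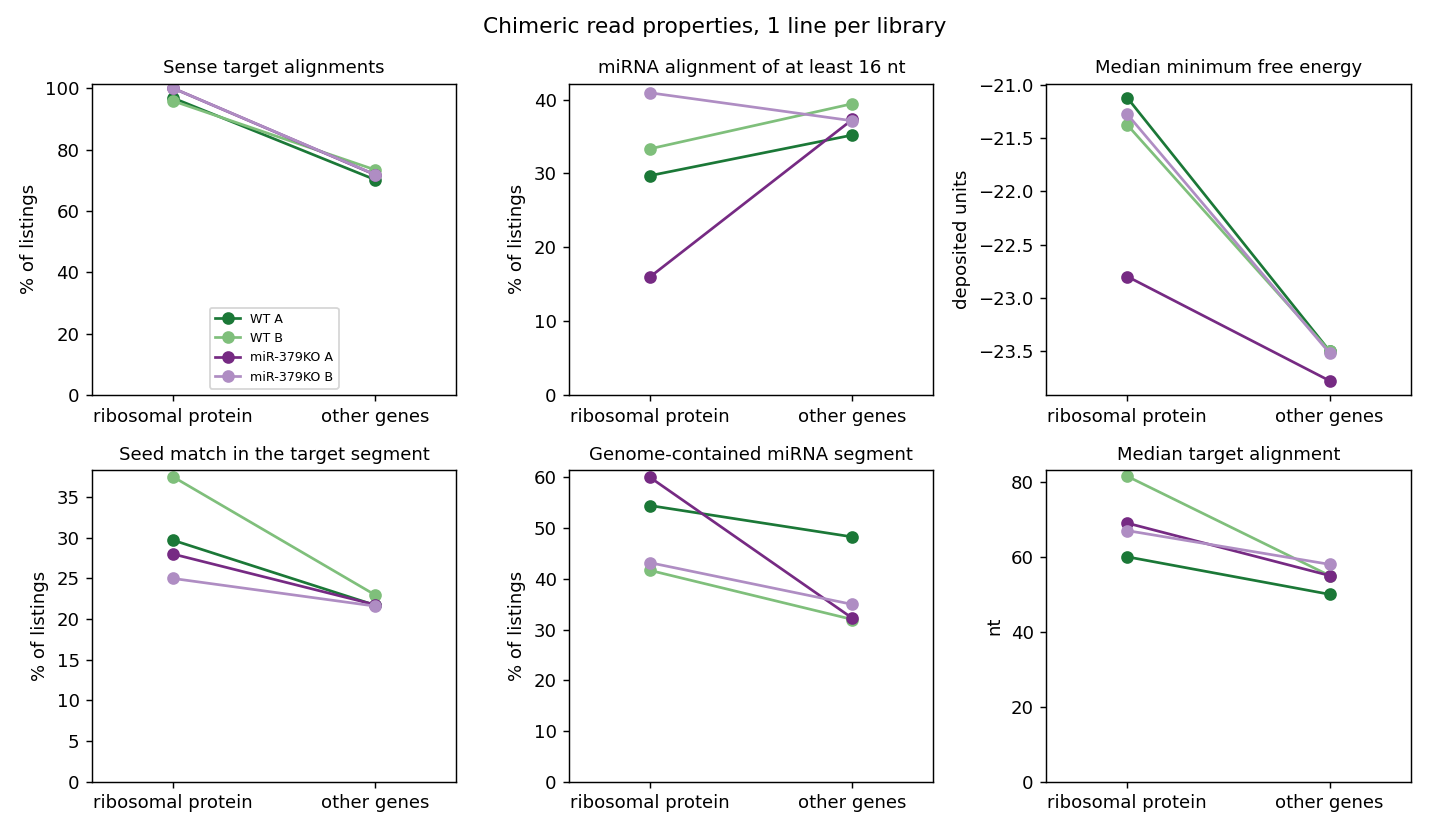
Properties of chimeric reads listed with ribosomal protein genes and of reads listed with none of them; each line joins the 2 values of 1 library. Sense shares of 95.8% to 100% against 70.1% to 73.4% separate in every library, while the share of miRNA alignments of at least 16 nt runs in both directions.

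Listing with a snoRNA gene was the plainest difference, chosen after its values were seen and so given without a test. Of the distinct ribosomal protein reads, 47 of 94 and 9 of 23 (39.1%) in WT and 7 of 25 (28.0%) and 14 of 39 (35.9%) in miR-379KO were also listed with an annotated snoRNA gene. Among other reads listed with a protein-coding gene the share was 0.523% and 0.377% in WT and 0% of 2029 reads and 0.310% in miR-379KO. The difference averaged 37.95 ± 8.91 percentage points (SD, n = 4), and 27.7 points over the 44 genes described singly.

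The genotypes were compared to ask whether loss of miR-379 went with a change in these targets. Ribosomal protein genes took 69.8 (exact binomial 95% interval 57.6 to 83.8) and 47.3 (32.8 to 66.0) reads per 10000 in WT, and 64.8 (46.5 to 87.8) and 81.8 (61.4 to 106.9) in miR-379KO. WT lay 14.8 reads per 10000 below miR-379KO on average (58.6 ± 15.95 against 73.3 ± 12.0, SD, n = 2 each), with WT A above miR-379KO A, so the groups overlapped. The difference was -26.1 without WT A, -3.49 without WT B, -23.3 without miR-379KO A and -6.26 without miR-379KO B. It was -6.53 with each distinct read counted once, -1.36 with reads listed with a single gene and 0.278 without genome-contained miRNA segments, so its size and sign depended on how reads were counted. Intervals cover counting error only, and in bulk cells a lower share cannot be told apart from fewer cells of a type or less RNA per cell.

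**Figure D5:**
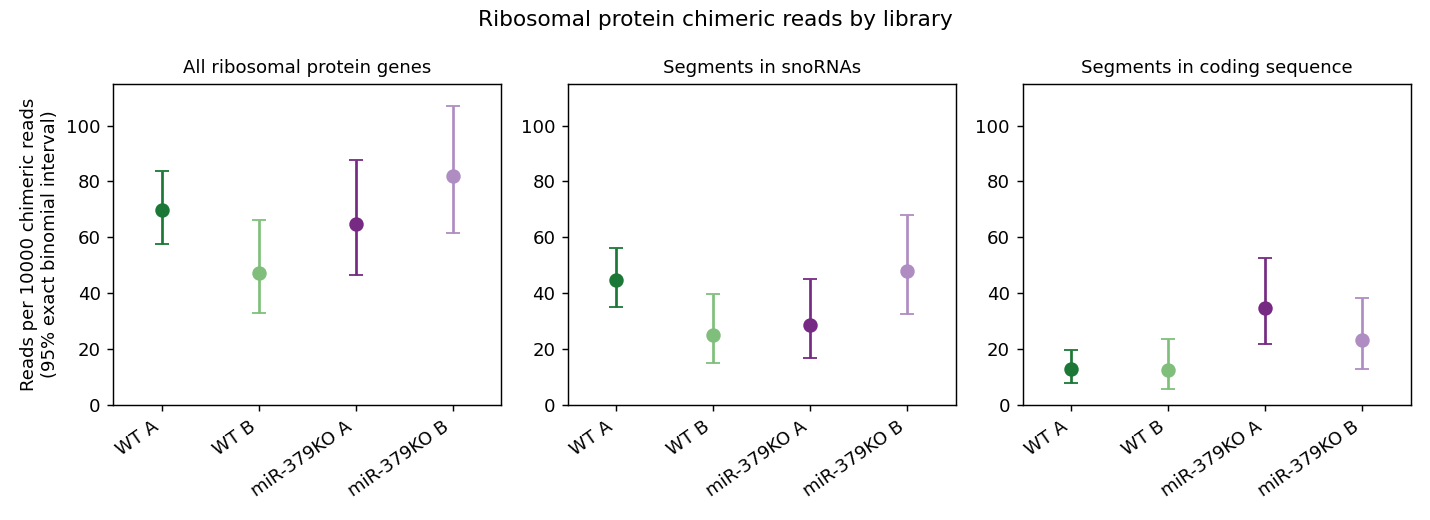
Ribosomal protein reads per 10000 chimeric reads in each library with exact binomial 95% intervals, for all members, for segments in snoRNAs and for segments in coding sequence. The WT and miR-379KO points overlap in the first 2 panels; in coding sequence the WT points are 12.9 and 12.5 and the miR-379KO points 34.8 and 23.2.

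Split by region after the values were seen, segments in snoRNAs stood at 44.7 and 25.0 per 10000 in WT and at 28.5 and 47.9 in miR-379KO, again overlapping. Segments in coding sequence stood at 12.9 (21 reads, interval 7.97 to 19.7) and 12.5 (9 reads, 5.72 to 23.7) in WT and at 34.8 (22 reads, 21.8 to 52.6) and 23.2 (15 reads, 12.97 to 38.2) in miR-379KO. These 2 groups did not overlap, though the interval of miR-379KO B overlaps those of both WT libraries and that of miR-379KO A overlaps that of WT B, and no test was run on a split chosen this way.

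Gene by gene, edgeR's quasi-likelihood test over all 686 target genes with at least 10 reads called 0 genes at an adjusted p under 0.05 (0% of those tested; 24 had an unadjusted p under 0.05, and DESeq2 called 0 with 8 unadjusted). Of the 7 ribosomal protein genes tested 0 were called and 0 had an unadjusted p under 0.05. Rps12 had 15 and 0 reads in WT and 1 and 2 in miR-379KO, and a log2 fold change (WT over miR-379KO) of 1.09 ± 1.25 (SE; edgeR adjusted p = 0.964). Of its 18 reads 15 were in WT A. Rpl21, with 5 and 0 against 3 and 2 reads, had -1.05 ± 1.35 (edgeR adjusted p = 0.964). Values of the other genes described were -0.97 for Rpl4, -0.87 for Rpl10, 0.95 for Rpl13 and -0.52 for Rpl7a. Single libraries moved these uncalled values: without WT B they were 1.78 for Rps12, -0.46 for Rpl21, -0.25 for Rpl10 and 0.085 for Rpl7a, and without miR-379KO A 0.51 for Rps12, -1.71 for Rpl7a and -0.17 for Rpl13, so the sign of the last 2 genes was not stable. WT was higher in 2 of the 7, whose median was -0.52, beside a median of 0.25 over all genes tested. With each distinct read counted once it was higher in 2 of 4 with a median of -0.048, and with no minimum count in 24 of all 47 members with a median of 0.023, beside 2.096 over all 8440 genes. That last median includes genes of very few reads, and WT A listed 5928 genes against 2229 to 2874 in the other libraries. In simulated counts of this comparison with 686 genes, 52% of 8-fold and 100% of 64-fold changes were called, and smaller changes were not simulated. The simulation changed 100 genes at each fold with a common dispersion, and 4 unchanged genes were called. Recovery when only a few genes change was not simulated and may be lower.

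Of a reference list of 24 other genes, mostly elongation and initiation factors and other genes of translation, but also nucleolar, chaperone and RNA-binding protein genes such as Ncl, Npm1, Nap1l1 and Hnrnpa1 and the ubiquitin gene Ubb, 18 had any read. Together they had 96 reads, or 30.6 and 25.0 per 10000 in WT and 25.3 and 18.5 in miR-379KO. Of these 3 reached 10 reads and 0 were called. Ncl, the nucleolar protein nucleolin, had 14 reads, Eef2, the elongation factor that moves the ribosome, 13, and Eef1a1, which delivers aminoacyl-tRNA, 12.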

How the data were processed

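The authors merged paired reads, removed reads that aligned to the genome or transcriptome (GRCm38.p5, Bowtie2 2.1.0) and aligned the rest with blastn to mature miRNAs and GENCODE mRNAs on both strands. Their deposited file per library gives raw counts per distinct read (reads count), both alignments, a score and the MFE; the tool behind the score and MFE and their units are not given in the sources used here. Listings with several genes were kept. Each distinct read was counted once per gene and library with its reads count. Target segments were placed on GRCm38 through the deposited position in the listed transcript (GENCODE vM21, or the best matching transcript of the gene), and called snoRNA when 50% or more lay in a GENCODE or RefSeq snoRNA on the same strand. A miRNA segment was genome-contained when it matched the genome exactly with 10 nt on each side; a seed match is the reverse complement of miRNA bases 2 to 7 in the target segment. Counts were tested with edgeR 4.0.16 (TMM, genotype, at least 10 reads, Benjamini-Hochberg) and DESeq2 as an alternative, checked on simulated data. Intervals are Clopper-Pearson. Genes named are the 20 with the most reads among the 44 described singly, plus any with an unadjusted p under 0.05 and Rplp0, Rplp1, Rplp2 and Rpsa; single reads are the 8 sense reads with at least 20 nt of miRNA and the lowest MFE; others were named after their values were seen; miRNAs are those of the 10 with the most reads that were listed with the 44 genes, plus miR-10 and miR-379. 3 member genes are in the totals but not reported singly here. The members and lists were chosen with earlier results of these data known.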

Additional observations from a re-analysis of the deposited data

How the results depend on the processing

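No ribosomal protein gene was called under any of the 12 alternatives (replicate block, DESeq2, library totals without TMM, no minimum count, other ways of counting reads, and each library left out, where the lone library of a genotype is assumed to vary like the others). Fewer than the 7 members were tested in several of these. Only 1 was tested with alignments of at least 16 nt, with single-gene reads or without WT A. With sense alignments only it was 2, and without miR-379KO B 3. With the library letter as a replicate block 0 of 686 target genes and 0 of 7 ribosomal protein genes were called. The A minus B differences of the genotypes had a correlation of -0.04 over 686 genes. At counts this low that value cannot decide whether the letters pair the libraries. Over all target genes the count of calls was 1 with reads listed with a single gene, and 0 to 4 when 1 library was left out, 4 of them without WT B; the cause was not tested. Among the genes described, fold changes of uncalled genes turned in 2 cases: Rpl7a to 0.085 without WT B (-1.71 without miR-379KO A) and Rpl13 to -0.17 without miR-379KO A. The share of miRNA alignments of at least 16 nt turned to 0.047 points with single-gene reads, and the snoRNA listing difference was 27.7 points over the 44 genes described singly; the cause was not tested. The settings over these 44 genes and by region were chosen after seeing the data. The WT minus miR-379KO share difference ranged from -26.1 to -3.49 with 1 library left out and was 0.278 without genome-contained miRNA segments. The remaining differences from other genes kept their sign under every alternative run, and the genome-contained difference fell to 3.75 points with 5 nt flanks. Counts of 0 to 15 reads per described gene and library limit every comparison between genotypes.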
